A study of Mus musculus with 16 samples.

Results

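Genes of DNA replication and S phase were followed across mouse lungs given crystalline silica. The set was a list of 41 genes, taken by symbol from the annotation of the array, with the probe set of the highest mean over all arrays kept for each gene. All 41 were measured, among 19938 genes in all. The listed symbols, and not a threshold on these arrays, decide membership, but the list was drawn up with earlier results of these data known. By role the list holds 8 genes of origin licensing, 6 of helicase activation, 7 polymerase and primase genes, 8 genes of the sliding clamp, its loader and the lagging strand, 5 genes of nucleotide supply, 4 of chromatin copying and 3 of S phase entry.

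Whole lung RNA of C57BL/6 mice was measured on 16 Affymetrix arrays. Each mouse had received crystalline silica (CS), or saline buffered with phosphate (PBS) as the vehicle, by instillation through the trachea. Genotypes were wild type (BLT1+/+) or null (BLT1-/-) for BLT1, a receptor for leukotriene B4, a lipid that attracts neutrophils. At day 2 the groups were BLT1+/+ and BLT1-/- lungs without a tumor allele, and at day 60 BLT1+/+KRasLA1 and BLT1-/-KRasLA1 lungs. Each genotype has 3 CS lungs on an array each and 1 PBS array, hybridised with RNA pooled from 3 mice. KRasLA1 is a latent oncogenic allele that becomes active in single cells by spontaneous recombination and gives lung tumors. The mice are given as 10 to 12 weeks old. Every day 60 group carries KRasLA1 and no day 2 group does, so day and allele cannot be told apart. Below, a silica response is the mean log2 level of the CS lungs minus the level of the PBS pool of the same genotype and day, and a mean response is the average of both BLT1 genotypes. A gene is called where the adjusted p of limma's moderated test, with Benjamini-Hochberg adjustment over all 19938 genes, is under 0.05, and "±" gives the standard error of that fit.

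Before a cell divides it copies its DNA once. In G1, Cdc6 and Cdt1 load the Mcm2 to Mcm7 helicase ring onto origins. At the start of S phase Cdc45 and the GINS complex join the ring and turn it into a running helicase, polymerase alpha with primase lays down primers, and polymerases epsilon and delta copy the strands, held on DNA by the clamp Pcna. E2F transcription factors, released from RB proteins by cyclin-dependent kinases, drive many of these genes together, so their messages are widely used as a sign of cells in cycle. In the resting adult lung few cells divide, while after injury epithelial, endothelial and fibroblast cells as well as macrophages can do so.

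The promoters of the set were searched for the letters of the E2F site. Windows from 250 bases before to 50 bases after a transcript start were taken from RefSeq on build GRCm38.p6, and 33 of the 41 genes matched a window by symbol. The words TTTCCCGC, TTTGGCGC, TTTCGCGC and TTTGCCGC were searched on both strands, with overlaps allowed. At least 1 of them was in 14 of the 39 windows of the set (35.9%) and in 2.26% of all 32851 windows. The windows of the set were richer in G and C than all windows (median 60% against 52.7%), and among all windows with 52.2% to 65.7% of G and C, the middle range of the set, 3.29% held a word. The CCAAT box was in 48.7% of the windows of the set and 37.4% of all windows, the GC box GGGCGG in 71.8% and 35.7%, and the CHR letters TTTGAA in 10.3% and 17.9%. A match is a run of letters and not a shown binding site, and a window without one says only that these letters are not in it.

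For 9 genes a word lay before the start. Of these, 6 are printed because they are leading or licensing genes: Hells and Uhrf1 are among the 8 genes with the largest mean response at day 2, and Cdc6, Mcm5, Mcm6 and Mcm7 act in origin licensing. Each stretch is 120 bases of the gene's strand, 5′ to 3′, with the E2F letters in capitals. Hells is at chr19:38930870-38930989 (+), Uhrf1 at chr17:56304098-56304217 (+), Cdc6 at chr11:98907983-98908102 (+), Mcm5 at chr8:75109326-75109445 (+), Mcm6 at chr1:128359726-128359845 (-) and Mcm7 at chr5:138171959-138172078 (-). All 6 stretches lie upstream of the annotated start.
Hells: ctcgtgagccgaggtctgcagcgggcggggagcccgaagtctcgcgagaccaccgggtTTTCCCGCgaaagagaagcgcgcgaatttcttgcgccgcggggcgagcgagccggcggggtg
Uhrf1: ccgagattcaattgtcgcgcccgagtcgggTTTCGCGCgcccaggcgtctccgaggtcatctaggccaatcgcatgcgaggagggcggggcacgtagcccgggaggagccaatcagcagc
Cdc6: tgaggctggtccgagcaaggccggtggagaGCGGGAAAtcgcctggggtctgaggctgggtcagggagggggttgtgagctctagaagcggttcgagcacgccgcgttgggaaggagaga
Mcm5: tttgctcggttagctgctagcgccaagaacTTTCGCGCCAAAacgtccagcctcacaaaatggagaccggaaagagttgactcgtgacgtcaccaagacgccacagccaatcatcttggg
Mcm6: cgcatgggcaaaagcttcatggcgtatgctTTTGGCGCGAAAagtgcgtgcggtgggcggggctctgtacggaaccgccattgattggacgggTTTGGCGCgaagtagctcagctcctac
Mcm7: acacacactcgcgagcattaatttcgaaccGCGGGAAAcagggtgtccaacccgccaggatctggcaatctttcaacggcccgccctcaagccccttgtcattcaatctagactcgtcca
The word starts 62 bases before the start in Hells and lies farther from it in Uhrf1, Cdc6, Mcm5 and Mcm7, where Mcm5 holds 2 overlapping words. Mcm6 holds 3 words, of which 2 overlap. Gins3, Pola1 and Rfc3 also held a word before the start, and Cdt1, Lig1, Mcm3, Pold1 and Pole2 in the rest of the window.

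Some features of the arrays bear on every value below. The median level per array lay between 8.25 and 8.34, and the most similar pair of arrays still differed by an SD of 0.22 over probe sets. Genes that define lung epithelium were high on all 16 arrays, with Sftpc between 14.25 and 14.47 and Ager between 13.26 and 13.57. Y-linked Eif2s3y lay between 4.27 and 4.74 on 13 arrays and above that on 3, namely BLT1+/+KRasLA1 CS replicate 2 and both day 60 PBS pools. Every PBS value is a single pool, assumed in the fit to vary like a CS lung. The labels name the CS lungs biological replicates without animal numbers, so p-values measure the spread between these samples.

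At day 2 the whole set stood higher after silica. Averaged over both BLT1 genotypes, 40 of 41 genes rose, where 8.03% of all genes were called higher and 4.37% lower, and the exception was Gins4, a subunit of the GINS complex (0.21 ± 0.08, adjusted p = 0.114). The median response was 0.78 on the log2 scale (1.71-fold), against -0.02 over all genes, and 16 genes rose at least 2-fold. All 41 mean responses were positive, as were 45% of those of all genes. In all 41 genes every one of the 6 CS lungs lay above both PBS pools, a pattern found in 12.1% of all genes. The count stayed at 40 when any of the 6 CS lungs was left out. A fit of the day 2 arrays with 1 common response for both genotypes also called 40 genes of the set and 1883 of all genes. The same fit without the BLT1+/+ pool called 23 and 426, and without the BLT1-/- pool 2 (Cdc6 and Ctps) and 96, so the calls of all genes fell too. All 41 responses were positive in each.

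**Figure D1:**
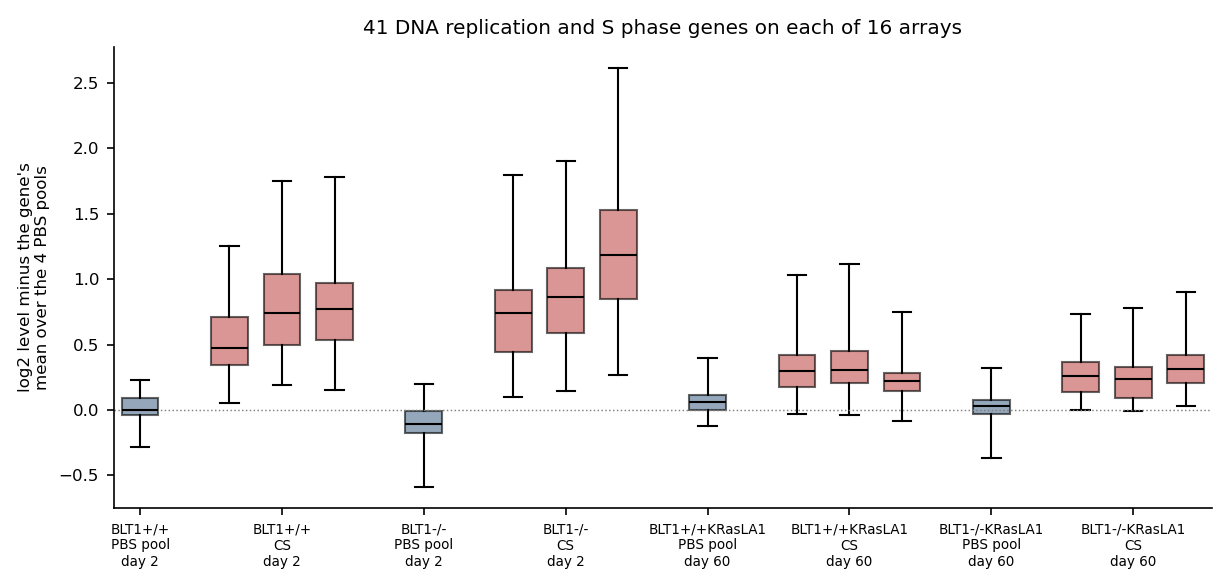
Levels of the 41 genes on each of 16 arrays, as log2 level minus the gene's mean over the 4 PBS pools. Boxes give the quartiles and whiskers the lowest and highest gene, blue for PBS pools and red for CS lungs. In all 41 genes the day 2 CS lungs lie above both day 2 pools, and the third BLT1-/- lung is the highest day 2 array in 38. For Gins4, BLT1+/+ CS replicate 1 of day 2 (10.305) lies below the BLT1-/-KRasLA1 pool of day 60 (10.326).

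S phase entry held the largest response. Cyclin E2, encoded by Ccne2, activates Cdk2 at the G1 to S transition, and its probe set (10503264) read 7.41 in the BLT1+/+ pool and 8.32, 9.01 and 9.01 in the BLT1+/+ CS lungs. In BLT1-/- mice it read 6.87 in the pool and 8.79, 9.02 and 9.69 in the CS lungs. Every CS lung was above either pool, and the lungs of the genotypes overlapped. The mean response was 1.83 ± 0.21 (3.57-fold, adjusted p = 0.000255, 6 of 6 lungs). Cyclin E1 (Ccne1), its close relative, rose by 1.03 ± 0.12, and E2f1, the transcription factor that drives the program and is itself a target of it, by 0.57 ± 0.12.

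Origin licensing genes moved most evenly. All 8 rose, with responses between 0.53 and 1.01 and a median of 0.94. Mcm2, a subunit of the helicase ring, read 9.16 in the BLT1+/+ pool and 9.87, 10.05 and 9.98 in the lungs, and 9.05 in the BLT1-/- pool and 10.06, 10.27 and 10.49 in the lungs. Its rise was 1.01 ± 0.10, and all BLT1-/- lungs lay above the BLT1+/+ lungs. Mcm5 (1.00 ± 0.12), Mcm3 (0.97 ± 0.10), Mcm7 (0.91 ± 0.10), Mcm6 (0.91 ± 0.09) and Mcm4 (0.75 ± 0.08), the other subunits of the ring, lay close to it. The loader Cdc6 read 7.08 in the BLT1+/+ pool against 8.08, 8.41 and 8.14, and 7.47 in the BLT1-/- pool against 8.19, 8.42 and 8.43, and rose by 1.00 ± 0.12. Its partner Cdt1, whose protein is destroyed once S phase starts, rose least of the group, by 0.53 ± 0.10.

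Helicase activation genes were less even. Of 6 genes 5 rose, with a median of 0.60. Gins1 stood at 6.93 in the BLT1+/+ pool and 7.65, 8.29 and 7.95 in the lungs, and at 6.86 in the BLT1-/- pool and 8.14, 8.10 and 8.54 in the lungs. Its rise of 1.21 ± 0.15 (2.32-fold) exceeded those of the other GINS genes, Gins2 at 0.62 ± 0.11 and Gins3 at 0.46 ± 0.08. Gins4 read 10.26 and 10.14 in the pools and 10.31 to 10.53 in the 6 CS lungs, which did not overlap with the pools although the gene was not called. Mcm10, which helps fire the loaded helicase, rose by 0.69 ± 0.12 and Cdc45 by 0.58 ± 0.11.

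All 7 polymerase and primase genes rose. Pole, the catalytic subunit of polymerase epsilon, which copies the leading strand, led with 1.29 ± 0.16 (2.44-fold). It read 7.71 in the BLT1+/+ pool and 8.52, 8.85 and 8.88 in the lungs, and 7.54 in the BLT1-/- pool and 8.75, 8.95 and 9.50 in the lungs. Its partner Pole2 rose by 1.04 ± 0.15 and the primase subunit Prim1, which makes the RNA primer, by 1.02 ± 0.16. Pola1 (0.73 ± 0.14) and Prim2 (0.71 ± 0.13) followed. The smallest rises were those of Pold1, the catalytic subunit of polymerase delta (0.35 ± 0.07), and Pola2, the regulatory subunit of polymerase alpha (0.33 ± 0.08).

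The 8 genes of clamp, clamp loader and lagging strand rose by 0.32 to 1.24. Rfc4, a subunit of the loader that places the clamp on DNA, led the group with 1.24 ± 0.22, and its lungs also spread widely. It read 9.46 in the BLT1+/+ pool and 9.84, 10.63 and 10.55 in the lungs, and 9.03 in the BLT1-/- pool and 10.17, 10.57 and 11.15 in the lungs. Rfc5 rose by 0.74 ± 0.17, Rfc3 by 0.57 ± 0.11 and Rfc2 by 0.32 ± 0.07, so the loader's subunits did not share a size of response. The clamp Pcna rose by 0.55 ± 0.08, from 11.73 in both pools to 12.04 to 12.59 in the lungs, and both of its probe sets gave 0.55. Lig1, the ligase that seals Okazaki fragments, rose by 0.78 ± 0.10, the flap nuclease Fen1 by 0.64 ± 0.10, and Rpa2, a subunit of the single-strand binding protein, by 0.38 ± 0.07.

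Nucleotide supply held genes with some of the largest rises. Rrm2, the small subunit of ribonucleotide reductase, the enzyme that makes deoxynucleotides, read 8.46 and 8.43 in the pools, 9.45, 9.98 and 10.23 in the BLT1+/+ lungs and 9.85, 10.28 and 11.06 in the BLT1-/- lungs. Its rise of 1.70 ± 0.25 (3.24-fold, adjusted p = 0.00108) goes with the widest spread of any gene of the set in the BLT1-/- lungs (SD 0.61, n = 3). The large subunit Rrm1 rose by 1.06 ± 0.16. Ctps, which makes CTP, read 9.48 in the BLT1+/+ pool and 10.64, 11.13 and 11.09 in the lungs, and 9.11 in the BLT1-/- pool and 10.90, 10.97 and 11.11 in the lungs. Its rise of 1.68 ± 0.13 had the smallest adjusted p of the set (2.1e-05). Tyms, the thymidylate synthase, rose by 1.16 ± 0.15. Thymidine kinase Tk1 rose by 0.44 ± 0.09 on the probe set used, and its other probe set gave 0.76, so the size depends on the probe set.

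Chromatin copying genes rose in 4 of 4 cases. Hells, a chromatin remodeler needed for DNA methylation, read 7.64 in the BLT1+/+ pool and 8.54, 9.23 and 9.21 in the lungs, and 7.47 in the BLT1-/- pool and 9.28, 9.38 and 9.90 in the lungs. It rose by 1.70 ± 0.19 (3.25-fold, adjusted p = 0.0002). Uhrf1, which brings the maintenance methyltransferase to newly copied DNA, read 7.85 in the BLT1+/+ pool and 8.67, 8.91 and 8.69 in the lungs, and 7.64 in the BLT1-/- pool and 9.02, 9.16 and 9.40 in the lungs. It rose by 1.22 ± 0.12 (2.34-fold). For both genes all 3 BLT1-/- CS lungs lay above all 3 BLT1+/+ CS lungs. The subunits of the histone chaperone CAF-1 rose by 1.13 ± 0.19 (Chaf1b) and 0.55 ± 0.09 (Chaf1a).

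**Figure D2:**
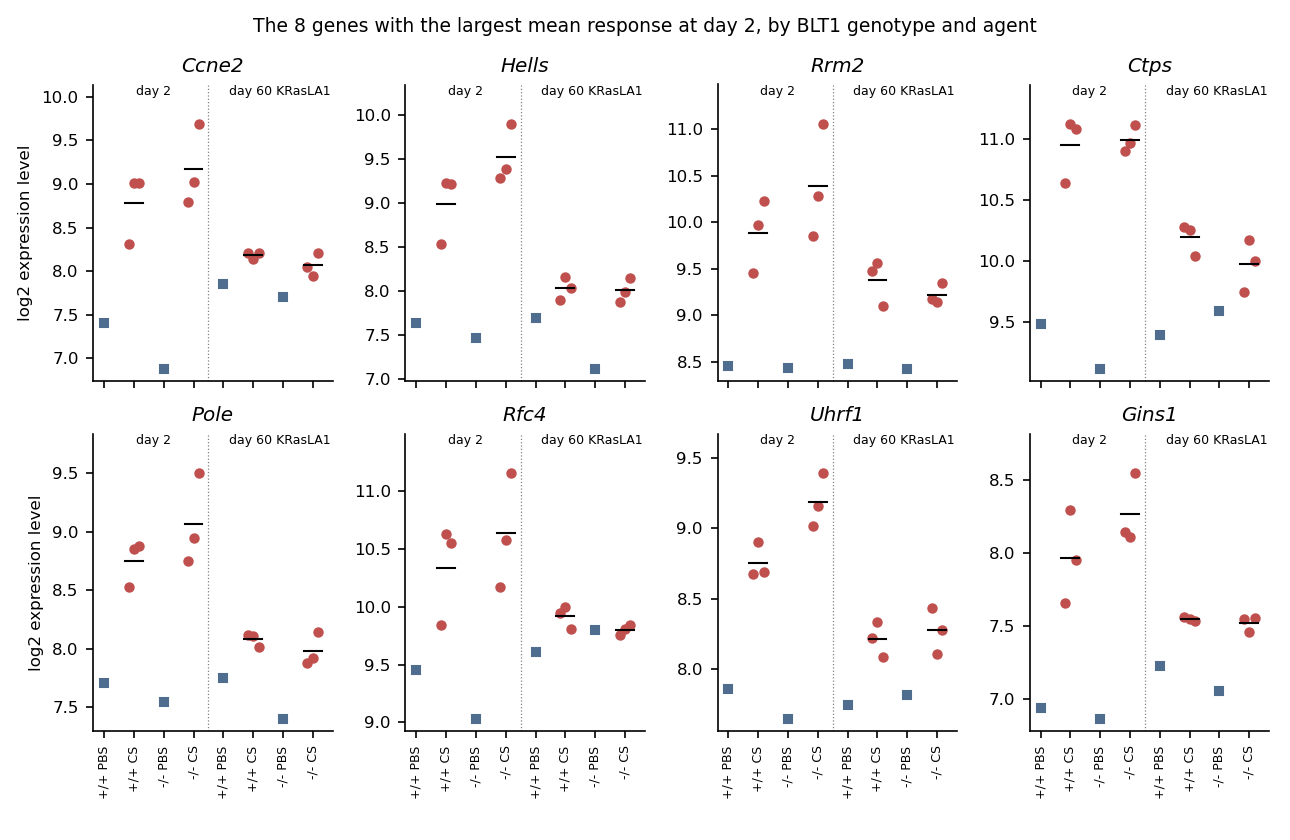
Log2 level of the 8 genes with the largest mean response at day 2 on every array. Blue squares are PBS pools, red points CS lungs and bars their means, with day 2 on the left of each panel and the day 60 KRasLA1 groups on the right. At day 2 all 6 CS lungs lie above both pools in each panel. At day 60 the CS lungs lie closer to the pools, and for Rfc4 they overlap with them.

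The 14 genes with E2F letters in a window had a median day 2 response of 0.91 (range 0.35 to 1.70), and the 19 genes with a window but no such letters 0.74 (range 0.33 to 1.70). The ranges overlapped almost fully. The 8 genes without a window here, Ccne2 and Gins4 among them, spanned 0.21 to 1.83.

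Within each genotype, 14 genes were called in BLT1+/+ lungs at day 2 and 37 in BLT1-/- lungs, where 0.853% and 5.19% of all genes were called higher (0.311% and 1.4% lower). The 14 were Cdc6, Mcm2 to Mcm7, Gins1, Pole, Lig1, Ctps, Hells, Uhrf1 and Ccne2, and all of them were among the 37. Not called in BLT1-/- lungs were Cdc45 (0.50 ± 0.15, adjusted p = 0.0653), Pold1 (0.33 ± 0.10, adjusted p = 0.069), Tk1 (0.44 ± 0.13, adjusted p = 0.0574) and Gins4 (0.29 ± 0.11, adjusted p = 0.145). The median response was 0.66 in BLT1+/+ and 0.96 in BLT1-/- lungs, against 0.02 and -0.05 over all genes, and all 41 responses were positive in each (56.2% and 41.7% of all genes). The BLT1+/+ count hangs on single lungs. Without replicate 1, the lowest of the group in 35 of 41 genes, it was 24, as all genes called, in either direction, went from 232 to 685. Without replicate 2 it was 2 (Cdc6 and Ctps), with 65 of all genes, and without replicate 3 it was 3 (Cdc6, Mcm3 and Ctps), with 77 of all genes. No label says what a replicate number marks, and the counts above use no pairing. For a further fit the numbers were taken as pairs at day 2 from correlations in these same data. With the number as a block at day 2, a fit added after seeing the data, the counts were 29 and 40. That fit called 749 and 2345 of all genes. With the day 2 arrays alone, fewer genes of the set and of all genes were called in each genotype, as given below.

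The difference between the genotypes was tested by itself and no gene of the set passed. After silica at day 2, the BLT1-/- mean lay above the BLT1+/+ mean in 41 of 41 genes (52.2% of all genes), with a median difference of 0.24. By limma, 0 genes of the set were called (0% of all genes higher and 0.0201% lower), and at an unadjusted p under 0.05 there were 13, where 8.7% of all genes reached that level. The largest was that of Hells (0.53 ± 0.19, adjusted p = 0.406), followed by Rrm2 (0.51 ± 0.25, adjusted p = 0.603), Cdt1 (0.45 ± 0.10, adjusted p = 0.205) and Uhrf1 (0.43 ± 0.12, adjusted p = 0.267). In 12 of 41 genes all BLT1-/- CS lungs lay above all BLT1+/+ CS lungs, against 6.31% of all genes. These were Cdt1, Mcm2, Mcm3, Mcm4, Mcm6, Mcm7, Pold1, Fen1, Lig1, Rpa2, Hells and Uhrf1, and licensing genes made up 6 of them. Of 13 lists of cell type markers, 2 also differed without overlap between these lungs. The mean level of the fibroblast genes was 11.18 to 11.26 in BLT1-/- and 10.97 to 11.08 in BLT1+/+ CS lungs, and that of the monocyte and recruited macrophage genes was 10.20 to 10.34 and 10.44 to 10.56. At day 60, 2 of 13 lists did not overlap either, the T cell and thymus genes, both higher in BLT1-/-KRasLA1 CS lungs. No share of lists expected without a genotype difference was worked out. The part of any list in the difference of the replication genes was not tested.

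The silica response itself was larger in BLT1-/- than in BLT1+/+ lungs in 37 of 41 genes (44.3% of all genes), with a median interaction of 0.36. By limma 0 genes of the set were called, as were 0 of all 19938 genes, and 6 had an unadjusted p under 0.05 (4.49% of all genes), namely Ccne2 (0.92 ± 0.42), Ccne1 (0.72 ± 0.25), Uhrf1 (0.64 ± 0.24), E2f1 (0.54 ± 0.25), Mcm6 (0.50 ± 0.18) and Mcm4 (0.41 ± 0.16). The adjusted p of each was 0.82. All 3 genes of S phase entry were among them. The exceptions to the direction were Cdc6 (-0.25 ± 0.24), Cdc45 (-0.17 ± 0.21), Pold1 (-0.04 ± 0.14) and Tk1 (-0.00 ± 0.18). The genes of the set moved together within a lung, so these counts are not 41 separate observations. BLT1-/- CS replicate 3 was the highest of the 8 day 2 arrays in 38 of 41 genes, and the BLT1-/- PBS pool was the lowest in 32. The interaction uses both day 2 pools, neither of which has a replicate. The spread between the BLT1-/- CS lungs was wider for the set (median SD 0.20, n = 3) than over all genes (median SD 0.09).

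**Figure D3:**
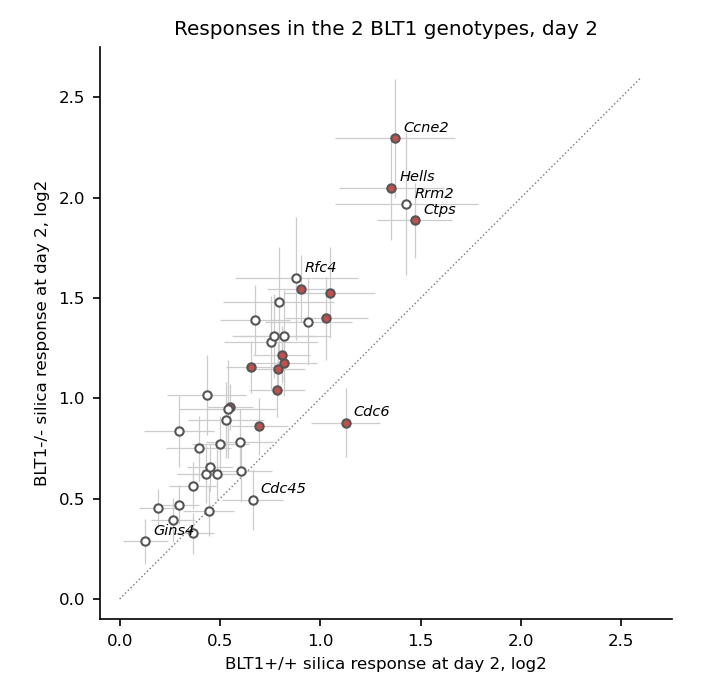
Silica response of the 41 genes at day 2 on the log2 scale, BLT1+/+ on the horizontal and BLT1-/- on the vertical axis, with standard errors from limma. Filled points were called in BLT1+/+ lungs and the dotted line marks equal responses. Of 41 genes 37 lie above the line, Cdc6 among the 4 on or below it, and no gene's distance from the line passed the test.

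At day 60, in lungs with KRasLA1, the responses were smaller. Averaged over the BLT1 genotypes 3 genes of 41 rose, where 3.35% of all genes were called higher, and the median response was 0.21 (1.16-fold) against -0.03 over all genes. The 3 were Ctps (0.59 ± 0.13, adjusted p = 0.0213), Uhrf1 (0.47 ± 0.12, adjusted p = 0.0415) and Cdt1 (0.39 ± 0.10, adjusted p = 0.0496), each higher in 6 of 6 lungs. Ctps was called whichever CS lung was left out, Uhrf1 and Cdt1 lost their call in 4 and 5 of 6 cases. Only Ctps was called without BLT1+/+KRasLA1 CS replicate 2, the lung whose Y-linked gene differs from the other CS lungs. The same held without BLT1+/+KRasLA1 CS replicate 1, or without BLT1-/-KRasLA1 CS replicate 1 or 3. Y-linked Eif2s3y was high in both day 60 pools too (9.68 and 9.04), so silica and the make-up of the pools cannot be told apart in these responses. A fit of the day 60 arrays with 1 common response for both genotypes called 10 genes of the set and 987 of all genes. Without the BLT1+/+KRasLA1 pool it called 1 (Hells) and 171, and without the BLT1-/-KRasLA1 pool 0 and 58.

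Ctps read 9.39 in the BLT1+/+KRasLA1 pool and 10.28, 10.26 and 10.04 in the lungs, and 9.59 in the BLT1-/-KRasLA1 pool and 9.74, 10.18 and 10.00 in the lungs. Uhrf1 read 7.74 and 8.22, 8.33 and 8.08 in BLT1+/+KRasLA1, and 7.81 and 8.44, 8.11 and 8.28 in BLT1-/-KRasLA1, pool first. For both genes every CS lung lay above both pools. The largest value of the set was that of Rrm2 at 0.85 ± 0.25 (adjusted p = 0.0886), with the pools at 8.47 and 8.42 and the 6 lungs between 9.10 and 9.56. Hells followed with 0.62 ± 0.19 (adjusted p = 0.0958), its pools at 7.70 and 7.11 and its lungs between 7.88 and 8.16. Neither passed in the fit of all arrays, although their lungs did not overlap with the pools. That fit shares a variance per gene over both days. Median SDs of the set were 0.15 and 0.20 in BLT1+/+ and BLT1-/- CS lungs of day 2. In the KRasLA1 CS lungs of day 60 they were 0.07 and 0.08. The fit of the day 60 arrays with a common response called both genes, with Cdt1, Mcm5, Mcm6, Gins1, Pole, Pole2, Ctps and Uhrf1. Its calls with a pool left out are given above. With group means fitted to the day 60 arrays alone, no variance is shared with day 2. That fit called 7 genes of the set and 886 of all genes, against 3 and 802 in the fit of all arrays. It also has fewer residual degrees of freedom. Whether the shared variance decides the calls of Rrm2 and Hells was not tested.

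In 27 of 41 genes all 6 CS lungs at day 60 were above both pools, against 9.66% of all genes, and 40 of 41 mean responses were positive (40.3% of all genes). The negative value was that of Gins4 (-0.01 ± 0.08). Of the 8 genes with the largest mean response at day 60, 6 were also among the leading 8 at day 2: Rrm2, Hells, Ctps, Uhrf1, Pole and Gins1. Cdc6, which had risen 2-fold at day 2, stood at 0.11 ± 0.12 and was higher in 4 of 6 lungs. Within each genotype 0 genes of the set were called at day 60, where 0.687% of all genes were called higher and 0.0752% lower in BLT1+/+KRasLA1 lungs, and 1.1% higher and 0.0702% lower in BLT1-/-KRasLA1 lungs. At an unadjusted p under 0.05 there were 5 in BLT1+/+KRasLA1 lungs (9.71% of all genes) and 10 in BLT1-/-KRasLA1 lungs (8.83% of all genes). The medians were 0.22 and 0.21, with 39 and 40 of 41 responses positive (45% and 41.7% of all genes).

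The BLT1 genotypes gave 0 called genes of the set at day 60 (0.015% of all genes higher and 0.0251% lower after silica), and 0 had an unadjusted p under 0.05, for the difference after silica (4.06% of all genes) or for the interaction (1.99%). The median difference was -0.02, with 15 of 41 genes positive (53.6% of all genes), and the interaction was positive in 19 (47.2%). Rpa2 was the 1 gene whose BLT1-/-KRasLA1 lungs all lay above the BLT1+/+KRasLA1 lungs (4.58% of all genes), and in 4 genes, Pcna, Rfc2, Tk1 and E2f1, the order was the opposite (5.92%). The spread between lungs was narrower than at day 2, with a median SD of 0.07 in BLT1+/+KRasLA1 and 0.08 in BLT1-/-KRasLA1 lungs. The widest spread of the set at day 60 was that of Rrm2 in BLT1+/+KRasLA1 lungs (SD 0.24, n = 3).

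**Figure D4:**
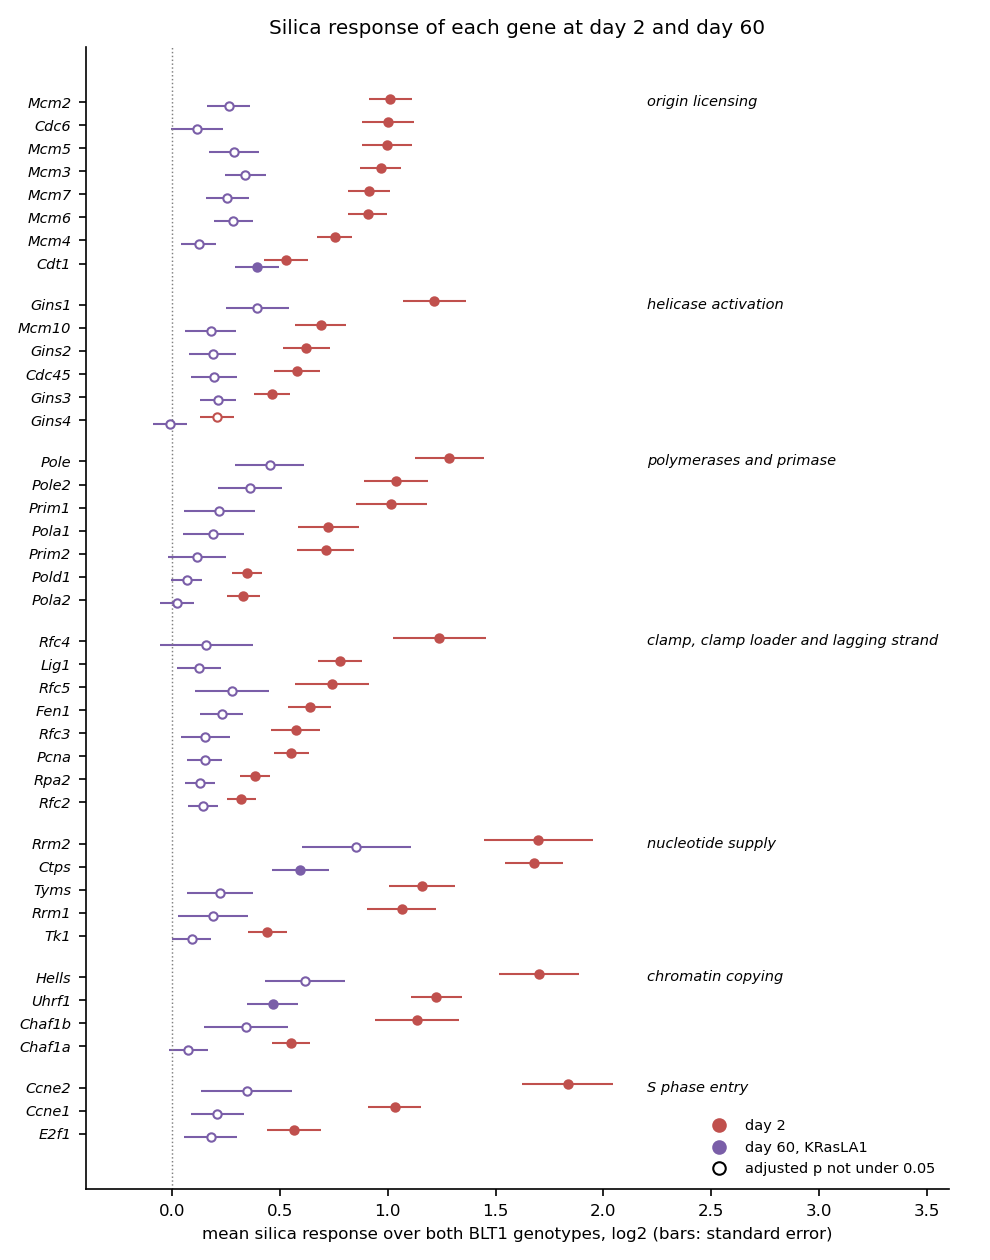
Mean silica response of each gene over both BLT1 genotypes on the log2 scale, by role, at day 2 (red) and day 60 (purple), with standard errors. Filled points were called by limma. At day 2 only Gins4 is open, and at day 60 only Cdt1, Ctps and Uhrf1 are filled. Every day 60 value lies left of its day 2 value.

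The difference between the days was tested as the mean response at day 60 minus that at day 2. It was positive in 0 of 41 genes (45.5% of all genes), with a median of -0.63, and 14 genes were called lower, where 0.657% of all genes were. They were 7 of the 8 licensing genes, all but Cdt1, together with Lig1, Tyms, Ctps, Hells, Uhrf1, Ccne1 and Ccne2. Ccne2 differed most, by -1.49 ± 0.30 (adjusted p = 0.0189), followed by Hells (-1.09 ± 0.26, adjusted p = 0.0484), Ctps (-1.08 ± 0.19, adjusted p = 0.0078) and Tyms (-0.94 ± 0.22, adjusted p = 0.0392). Rfc4 differed as much (-1.08 ± 0.31) but did not pass (adjusted p = 0.0959). None of the 6 helicase activation genes and none of the 7 polymerase and primase genes was called, with values from -0.22 to -0.83. Cdt1 had the smallest difference, -0.13 ± 0.15. The count was 26 with the replicate number as a block at day 2, and without 1 CS lung it ranged from 9 (without BLT1-/-KRasLA1 CS replicate 2 or BLT1+/+KRasLA1 CS replicate 1) to 21 (without BLT1+/+ CS replicate 1). All genes called, in either direction, were 469 in the main fit and 977 with that block. They were 328 and 330 in the fits with 9, and 716 in the fit with 21. Hells lost its call in 9 of the 12 fits without 1 lung, and Mcm5 and Tyms in 8.

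The PBS pools of the days differed less. Of 41 genes 0 were called by limma, where 0.166% of all genes were called higher and 0.231% lower, and 2 had an unadjusted p under 0.05 (10.7% of all genes), Ccne2 (0.64 ± 0.26) and Rfc2 (0.21 ± 0.08), both higher at day 60. The median difference was 0.08, with 33 of 41 genes positive (48.6% of all genes). In 30 of 41 genes all 6 CS lungs of day 2 lay above all 6 CS lungs of day 60, against 6.93% of all genes. Cdt1, Rrm2 and Chaf1b were among the 11 in which they overlapped. Day 60 lungs carry KRasLA1 and day 2 lungs do not, and Y-linked Eif2s3y was higher in the day 60 pools than in the day 2 pools, so time, allele and the make-up of the pools cannot be told apart in this difference.

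Genes of the pathway outside the set moved in part with it. Over all genes, 8.03% were called higher at day 2 and 3.35% at day 60. Of 31 other replication factors 18 rose at day 2, with a median response of 0.37, and 0 at day 60 (median 0.03). Those with the smallest p at day 2 were Pold2, a subunit of polymerase delta (0.62 ± 0.08), the fork proteins Wdhd1 (0.76 ± 0.12) and Topbp1 (0.50 ± 0.08), and the origin firing factor Ticrr (0.88 ± 0.14). Of 16 other nucleotide and chromatin copying genes 12 rose at day 2 and 2 at day 60. The histone chaperone Asf1b rose at both, by 1.43 ± 0.17 and 0.68 ± 0.17 (adjusted p = 0.0362), and the deoxycytidine kinase Dck rose by 0.61 ± 0.12 at day 60 (adjusted p = 0.0109). The methyltransferase Dnmt1 rose by 0.52 ± 0.07 at day 2 and stood at 0.19 ± 0.07 at day 60 (adjusted p = 0.167).

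Upstream of the set, 10 of 16 genes of the E2F, RB and S phase kinase list rose at day 2, and 1 fell. Cyclin A2 (Ccna2), the S phase partner of Cdk2, rose by 2.07 ± 0.26 (4.21-fold). The repressor E2f8 rose by 1.21 ± 0.17, the growth regulator Myc by 0.99 ± 0.12 and the phosphatase Cdc25a, which activates Cdk2, by 0.48 ± 0.10. The gene that fell was Rbl2 (the p130 protein), an RB relative of resting cells, at -0.33 ± 0.09 (adjusted p = 0.0234). It was named after its value was seen. Of the G1 cyclins and kinases 2 of 5 rose at day 2, Cdk4 by 0.23 ± 0.05 and Ccnd1 by 0.28 ± 0.08. Ccnd3 (0.11 ± 0.07), Ccnd2 (-0.04 ± 0.06) and Cdk6 (-0.02 ± 0.07) did not pass. None of 6 CDK inhibitors was called on either day. Their day 2 values were 0.27 ± 0.10 for Cdkn1c, 0.36 ± 0.17 for Cdkn2b, -0.16 ± 0.07 for Cdkn1b, -0.17 ± 0.12 for Cdkn2a, 0.06 ± 0.07 for Cdkn2c and 0.04 ± 0.08 for Cdkn2d. Cdkn1a lies on a probe set shared with other genes and was not analysed here.

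Genes that act beside or after replication rose as well. Of 15 genes of fork repair and checkpoint 12 rose at day 2 (median 0.65) and 0 at day 60 (median 0.16), among them the checkpoint kinase Chek1 at 1.41 ± 0.21, Mms22l at 0.97 ± 0.13, Brca1 at 0.95 ± 0.14 and Fanci at 0.69 ± 0.11. All 14 genes of mitosis rose at day 2, with a median of 1.53, led in p by Top2a (1.88 ± 0.22), Mki67, the gene of the Ki-67 antigen of cycling cells (1.84 ± 0.23), Cdk1 (1.88 ± 0.25) and Plk1 (1.82 ± 0.24). At day 60 Top2a (0.98 ± 0.22, adjusted p = 0.0235) and Mki67 (1.00 ± 0.23, adjusted p = 0.0247) rose, and the median was 0.72. Of 7 replication-dependent histone genes 6 rose at day 2 and 3 at day 60, H1f5 by 0.70 ± 0.14, H2ac15 by 0.52 ± 0.12 and H2ac4 by 1.05 ± 0.27. The median responses of the mitosis list exceeded those of the replication set on both days (0.78 and 0.21), a comparison of medians without a test.

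**Figure D5:**
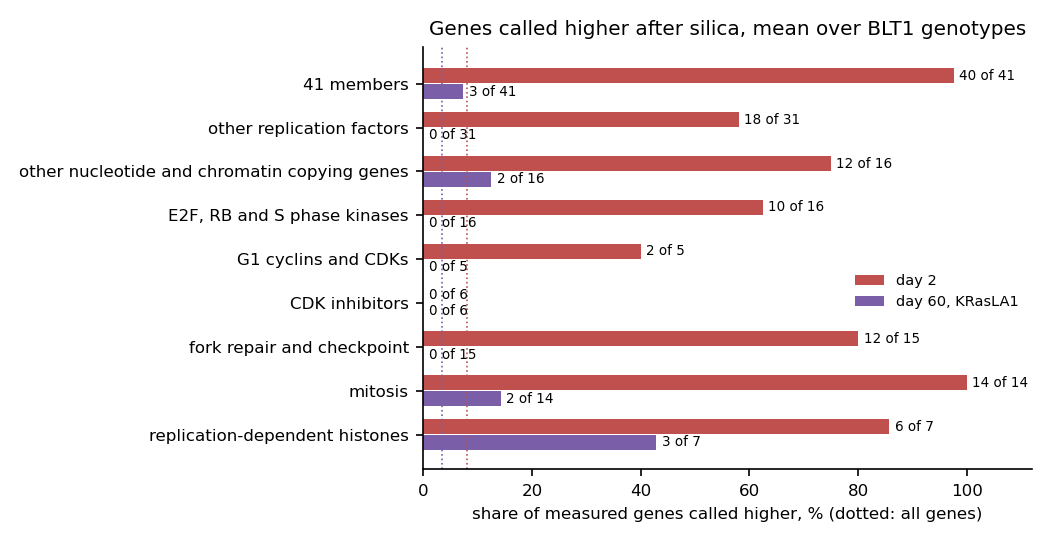
Share of measured genes called higher by limma in the mean silica response at day 2 (red) and day 60 (purple), for the 41 genes of the set and 8 further lists. Dotted lines give the share over all genes, 8.03% and 3.35%. All 14 mitosis genes and 40 of 41 genes of the set were called at day 2, none of the CDK inhibitors on either day.

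Markers of cell types were read beside these responses, since in whole lung RNA a change in the number of cells of a type and a change in RNA per cell cannot be told apart. At day 2, 4.37% of all genes were called lower and 8.03% higher. T cell and B cell markers fell while the set rose: 5 of 7 T cell genes and 6 of 7 B cell genes were called lower. Other lists of the B cell line did not fall. Of 7 plasma cell genes 2 were called higher and 0 lower (median -0.06), and of 4 germinal center B cell genes 2 and 0. The mean level of the B cell genes was 10.07 and 9.84 in the pools and 8.63 to 9.38 in the CS lungs. T cell genes averaged 8.62 in the BLT1-/- pool and slightly less in the BLT1+/+ pool, and 7.94 to 8.26 in the lungs. Of 9 thymus genes 3 fell, and the list had a median of -0.26, with values from -0.85 to 0.01 and 2 positive. Rag1 (0.00, at a low mean level of 6.72 over the 16 arrays) and Ptcra (0.01) were not called. Of 11 monocyte and recruited macrophage genes 3 rose, Cd14 (1.77), Fn1 (0.49) and C1qc (0.45), and Ccr2 fell (-0.38). None of 8 neutrophil genes was called, and their mean level was 10.62 and 11.30 in the day 2 pools, 10.42 to 11.36 in the day 2 CS lungs, and 8.78 and 8.29 in the day 60 pools. Of 6 fibroblast genes Col3a1 (0.65), Col1a1 (0.32) and Col1a2 (0.31) rose and Dcn fell (-0.28). The transferrin receptor Tfrc, listed with the erythroid genes but made by dividing cells in general, rose by 0.81, while Alas2 (-0.52), Slc4a1 (-0.20) and Klf1 (-0.20) did not pass. In the endothelium list Aplnr fell (-0.95) and 0 of 8 genes rose, and in the lung epithelium list 3 of 11 fell and 0 rose. Of 7 heart muscle genes 4 fell. None of these lists was set against the response of the replication genes, and their part in it was not tested.

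At day 60 the markers moved otherwise, where 3.35% of all genes were called higher and 0.677% lower. Of 11 monocyte and recruited macrophage genes 9 rose, with a list mean of 10.03 and 9.78 in the pools and 10.41 to 10.92 in the lungs, and 5 of 7 T cell genes, 4 of 7 plasma cell genes and 3 of 8 neutrophil genes rose too. The plasma cell gene Jchain rose by 2.82. In the difference between the days 7 of 7 T cell genes and 7 of 7 B cell genes were called higher at day 60, as were 1.7% of all genes. The replication set was lower in that difference. Germinal center B cells divide fast, and of their 4 measured genes Mybl1 (0.94) and S1pr2 (0.32) rose at day 2, where Rgs13 (-0.23) and Gcsam (-0.19) did not, and 0 rose at day 60. Of 8 alveolar macrophage genes, markers of the resident cell that takes up inhaled particles, Marco rose (0.95) and Siglecf fell (-0.35) at day 2, while Chil3 (0.93) and Itgax (1.05) rose and Fabp1 fell (-1.23) at day 60. The part of these cell types in the responses of the replication genes was not tested.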

How the data were processed

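The deposited values are log2 levels per probe set, made with RMA and Partek 6.6 per the submitters' processing notes; their order is not stated there. The labels' protocols give 250 ng of total lung RNA per array. Of 35556 probe sets, 21789 name 1 symbol, 1621 several and 12146 none in the platform annotation; those with 1 symbol gave 19938 genes, with the probe set of the highest mean kept. The values were kept as deposited, with no filter and no further normalization. In limma 3.58.1 (R 4.3.3), 8 group means were fitted to 16 arrays (8 residual degrees of freedom, prior 5.4) with a mean-variance trend, and 12 comparisons were tested two-sided with Benjamini-Hochberg adjustment over all genes at 0.05. The median standard error over genes was 0.139 for a response in 1 genotype, 0.0983 for a mean response and 0.1966 for an interaction. The number of arrays limits the precision.

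Replicate numbers were taken as pairs at day 2, where deviations of same-numbered lungs correlated at 0.426, 0.200 and 0.345 over genes, and not at day 60 (0.091, 0.010 and 0.055). The basis is these correlations and not a label. The members and lists were chosen with earlier results of these data known. All 41 genes could be named, the leading ones being the 8 with the largest mean response of a day. Of the other pathway lists up to 4 genes with the smallest p on a day were named, of the CDK inhibitors and G1 cyclins all, and of the marker lists any. Alternatives covered normalization, the trend, array weights, dim genes, probe sets, controls, pairing, each day alone and each CS lung left out. Promoter words were counted in RefSeq windows with pandas 2.3.3, and figures drawn with matplotlib 3.10.9.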

Additional observations from a re-analysis of the deposited data

Results flagged for a closer look

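The silica response differed between the days, by the test of the difference itself, in 14 genes of the set and in 3 further pathway genes, all with a smaller response at day 60 in limma with Benjamini-Hochberg adjustment over all genes. In origin licensing the day 60 response minus the day 2 response was -0.89 for Cdc6 (adjusted p = 0.0155), -0.75 for Mcm2, -0.63 for Mcm3, -0.63 for Mcm4, -0.71 for Mcm5, -0.62 for Mcm6 and -0.66 for Mcm7. On the lagging strand it was -0.65 for Lig1, and in nucleotide supply -0.94 for Tyms and -1.08 for Ctps. In chromatin copying it was -1.09 for Hells and -0.76 for Uhrf1, and among the cyclins -0.82 for Ccne1 and -1.49 for Ccne2. Of 12 fits without 1 CS lung, Hells lost its call in 9, Mcm5 and Tyms in 8, Uhrf1 in 3, Lig1 in 2 and Mcm3 in 1. Cdc6, Mcm2, Mcm4, Mcm6, Mcm7, Ctps, Ccne1 and Ccne2 lost it in 0. Outside the set it was -0.56 for Pold2 (adjusted p = 0.0213), -0.70 for Myc (adjusted p = 0.0494) and -0.64 for Orc6, the sixth subunit of the origin recognition complex (adjusted p = 0.045), a gene named after its value was seen. Day and KRasLA1 cannot be told apart in these values. No group holds more than 3 arrays, so no test for single samples far from their group was run. By rank within the set, CS replicate 1 of day 2 was the lowest of its group in 35 of 41 genes in each genotype. BLT1-/- CS replicate 3 of day 2 was the highest of its group in 39.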

How the results depend on the processing

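The count of 40 genes called in the mean response at day 2 was the same when any CS lung was left out, under quantile normalization, no trend, array weights, the replicate block and the day 2 arrays alone. Over these settings all genes called ranged from 1589 (day 2 arrays alone) to 3299 (replicate block), against 2473 in the main fit. Among genes at or above the median level, 24 of the set were tested and 23 were called, with 2277 of all genes. A fit with 1 common response, added after seeing the data, gave 40 with both day 2 pools, and the planned form of it gave 23 when the BLT1+/+ pool was left out and 2 when the BLT1-/- pool was. In BLT1+/+ lungs at day 2 the count of 14 ranged from 2 to 24 without 1 lung, and was 34 against both pools, 29 with the replicate block (29 at day 2 only), 8 among brighter genes and 2 with the day 2 arrays alone. All genes called were 232 in the main fit and 65 to 685 without 1 lung. They were 1060 against both pools, 730 with the block (749 at day 2 only), 212 among brighter genes and 93 with the day 2 arrays alone. In BLT1-/- lungs at day 2 the count of 37 ranged from 33 to 38 without 1 lung, and was 23 among brighter genes and 23 with the day 2 arrays alone. All genes called were 1315 in the main fit and 697 to 1549 without 1 lung. They were 1364 among brighter genes and 425 with the day 2 arrays alone. For the mean response at day 60 the count of 3 ranged from 1 to 4 without 1 lung, and was 8 with array weights, 7 with the day 60 arrays alone and 6 with the replicate block. All genes called were 802 in the main fit and 573 to 1040 without 1 lung. They were 1729 with array weights, 886 with the day 60 arrays alone and 1098 with the block. The fit with 1 common response gave 10 with both day 60 pools, 1 when the BLT1+/+KRasLA1 pool was left out and 0 when the BLT1-/-KRasLA1 pool was. In BLT1+/+KRasLA1 lungs the count of 0 ranged from 0 to 1 without 1 lung, and was 2 with array weights, 1 against both pools and 1 with the replicate block. All genes called were 152 in the main fit and 43 to 477 without 1 lung. They were 676 with array weights, 619 against both pools and 231 with the block. In BLT1-/-KRasLA1 lungs the count of 0 was 2 with array weights, 1 with the day 60 arrays alone and 1 with the replicate block. All genes called were 234 in the main fit, 876 with array weights, 167 with the day 60 arrays alone and 331 with the block. For the day difference the count of 14 ranged from 9 to 21 without 1 lung, and was 25 with the replicate block (26 at day 2 only) and 9 among brighter genes. All genes called were 469 in the main fit and 312 to 716 without 1 lung. They were 911 with the block (977 at day 2 only) and 313 among brighter genes. The replicate block at day 2 only was added after seeing the data, and the pools carry no number, so its errors may be too small. It gave 0 called genes for the BLT1 difference and the interaction. At day 60 the mean responses of 3 genes changed sign: Pola2 to -0.00 (quantile normalization, and without replicate 3 of either genotype) and -0.07 (common response without the BLT1-/-KRasLA1 pool), Gins4 to 0.01 (array weights) and 0.02 (without BLT1+/+KRasLA1 replicate 3, and common response without the BLT1-/-KRasLA1 pool), and Cdc6 to -0.07 (the latter fit). Without 1 lung Pola2 ranged from -0.00 to 0.04 and Gins4 from -0.05 to 0.02. Fewer genes of the set are tested among brighter genes, and the cause of the changes was not tested for any setting.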
